A study of Mus musculus with 4 samples.

Results

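The 10 germ-cell genes described here, led by Dazl, were followed in mouse embryonic stem cells (mESC) that had lost Ogt. They were chosen by name as germ-cell RNA-binding proteins (Dazl, Boll, Ddx4, Stk31), transcription and chromatin factors (Taf7l, Dmrtb1, Brdt), testis copies of housekeeping genes (Slc25a31, Rpl10l) and a germ-cell surface protein (Tex101). All 10 were among the 25239 gene symbols of the count tables, and all 10 passed the filter on low counts that left 14525 genes. Some of the 10 were picked because they rose in these libraries. Their fold changes are therefore a description, printed without p-values, and nothing is read from the number of them that were called.

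Polyadenylated RNA was sequenced in 4 libraries, all from mESC of the genotype Ogt fl/fl. The Ogt iKO group (induced knockout, 2 libraries) was treated for 6 days with 4-OHT, the ligand 4-hydroxytamoxifen, and the control group (2 libraries) was cultured for the same 6 days without it. All cells grew on mitomycin-treated embryonic fibroblasts with LIF and were sorted by flow cytometry with a viability dye and surface antibodies, to remove the feeder cells. The labels give the antibody against the Thy1 product as the one that picks mESC and that against the Epcam product as the one that excludes feeders. Since Epcam is known from mESC and Thy1 from fibroblasts, that is the reverse of the usual use, and how the gate was set cannot be told from the labels. Treated cells were in addition selected for YFP, so ligand, recombination and that selection cannot be told apart. The labels used here do not name the recombinase or its promoter, and they do not say whether the replicates came from separate cultures, so the spread between replicates may be technical. The study asked how loss of OGT, the enzyme that attaches O-GlcNAc to proteins, changes DNA methylation and the silencing of transposable elements and genes.

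Many germ-cell genes carry CpG-rich promoters that are methylated in somatic tissues and during early development, and they are demethylated and switched on in germ cells. In mESC and other non-germ cells such genes are also held down by a Polycomb complex, PRC1.6, that recognises E-box and E2F sites through MGA, MAX and E2F6. DAZL itself binds messenger RNAs and is needed for germ-cell development. Slc25a31 and Taf7l encode relatives of genes that work in all cells, and several such copies serve the testis when the somatic gene, often on the X chromosome, is silenced in meiosis. Taf7l itself lies on the X chromosome, so that account does not cover it.

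Gene positions and distances below are those of RefSeq on GRCm38.p6. The stretches before the annotated starts of 5 of the genes are shown because CpG sites are the substrate of the methylation the study is about. The first 4 belong to genes with higher levels in Ogt iKO and the fifth to Brdt, whose groups overlapped. Each is written 5′ to 3′ along the gene's strand (RefSeq, GRCm38.p6), with CpG sites in capitals, and ends at the first base before the most upstream RefSeq or GENCODE start. They lie at chr17:50293637-50293836, minus strand, at chrX:134476506-134476705, minus strand, at chr3:40708655-40708854, plus strand, at chr12:66284402-66284601, minus strand, and at chr5:107330944-107331115, plus strand.
Dazl: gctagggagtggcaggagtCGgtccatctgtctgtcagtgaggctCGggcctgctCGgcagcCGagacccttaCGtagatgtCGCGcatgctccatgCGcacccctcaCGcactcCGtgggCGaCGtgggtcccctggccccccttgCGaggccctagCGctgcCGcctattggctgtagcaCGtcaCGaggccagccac
Taf7l: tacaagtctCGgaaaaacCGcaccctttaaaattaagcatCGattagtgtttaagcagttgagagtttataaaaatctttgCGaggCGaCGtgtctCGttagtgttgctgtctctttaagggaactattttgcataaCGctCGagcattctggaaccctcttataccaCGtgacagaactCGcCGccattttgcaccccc
Slc25a31: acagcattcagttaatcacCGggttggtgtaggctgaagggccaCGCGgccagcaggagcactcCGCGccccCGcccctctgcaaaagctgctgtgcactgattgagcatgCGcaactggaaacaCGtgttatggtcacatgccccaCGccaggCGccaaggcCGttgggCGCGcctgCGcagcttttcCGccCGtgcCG
Rpl10l: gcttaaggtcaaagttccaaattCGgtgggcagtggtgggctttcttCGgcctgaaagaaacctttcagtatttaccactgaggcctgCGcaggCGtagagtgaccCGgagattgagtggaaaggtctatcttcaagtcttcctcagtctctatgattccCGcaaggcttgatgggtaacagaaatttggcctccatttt
Brdt: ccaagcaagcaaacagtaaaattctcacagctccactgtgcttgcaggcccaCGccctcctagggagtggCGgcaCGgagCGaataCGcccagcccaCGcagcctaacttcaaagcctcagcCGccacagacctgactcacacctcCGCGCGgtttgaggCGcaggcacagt

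Dazl and Slc25a31 each had 17 CpG sites in 200 bases, Taf7l had 12 and Rpl10l had 6, while Brdt had 11 in 172 bases. Promoter windows of 300 bases, from 250 before to 50 after a RefSeq start, were then compared. Where a gene had several windows, the window nearest to a GENCODE start was used. The ratio of observed to expected CpG was 0.795 for Dazl, 1.03 for Taf7l, 0.826 for Slc25a31, 0.978 for Ddx4, 0.890 for Boll, 0.750 for Stk31, 0.738 for Brdt, 0.700 for Tex101, 0.643 for Rpl10l and 0.606 for Dmrtb1. All 10 lay above 0.384, the median of 32851 windows. Windows above that median belonged both to genes whose levels were higher in Ogt iKO and to genes whose levels were not. Being above it does not make a window rich in CpG, and that of Dmrtb1 held 9 sites. Other windows, farther from a GENCODE start, had ratios of 0.684 for Dmrtb1, 0.908 for Stk31 and 0.504 for Boll.

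The E-box, CACGTG (the same on both strands), was present in the windows of Taf7l, Slc25a31, Stk31, Ddx4 and Brdt, or 5 of 10, against 7.15% of all windows. Of windows with at least the CpG ratio of Dmrtb1, 11.3% held it. The E2F core, GCGGGA or TCCCGC on the other strand, was present in 4 of 10 (Slc25a31, Ddx4, Rpl10l and Boll), against 19.98% of all windows and 43.3% of those with at least the CpG ratio of Dmrtb1. In the 250 bases upstream of the start alone, 2 of 10 held the E2F core (Ddx4 and Rpl10l), against 16.9% of all, and the same 5 of 10 held the E-box, against 6.02%. The E-box of Brdt lies before the start that its window is built on but not before the most upstream RefSeq start, and so is not in the stretch printed above. In the sequences above the E-box reads caCGtg, and its first base lies 34 bases before the end of the Taf7l stretch and 77 before the end of the Slc25a31 stretch. The windows of Slc25a31 and Ddx4 held both motifs, and those of Dazl, Dmrtb1 and Tex101 held neither. Another Boll window, farther from a GENCODE start, held the E-box. These matches describe letters in a window, and no binding was measured.

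Ogt was examined first as a check of the labels. Its counts were 437 and 389 after 4-OHT and 2963 and 3108 without it, which left 12.9% of the control level. By the quasi-likelihood test of edgeR, the adjusted p of Ogt was 2.486e-07 and its log2 fold change -2.96 (SE 0.0676). Total counts per library ran from 14668489 to 16504204, and 3 counts, the limit that a count of 0 allows, corresponded to 0.175 to 0.196 CPM (counts scaled to library size by the trimmed mean of M-values). All 8 mESC markers were detected in both groups. Pou5f1 was at 61.0% of its control level in Ogt iKO, Tdgf1 at 45.6%, Nanog at 36.2% and Sox2 at 33.2%, and 7 of the 8 were lower, against 32.0% of all tested genes. Epcam had 280.4 and 287 CPM in Ogt iKO and 347 and 307 CPM in control, and Thy1 25.6 and 8.90 CPM against 15.6 and 15.6 CPM. Markers of fibroblasts, the feeder cells, had a summed level of 2705 CPM in Ogt iKO replicate 1, of 812 CPM in replicate 2, and of 983 and 1103 CPM in the controls. Ogt iKO replicate 1 stood apart in this sum. Of the 12 markers, 4 were higher (Tagln, Acta2, Pdgfrb and Twist1), 0 were lower and none was at 0, against 33.2% higher and 32.0% lower over all tested genes.

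Dazl (minus strand of chr17:50279393-50293620) had 324 and 260 CPM in Ogt iKO replicates 1 and 2 (5543 and 4028 counts) and 44.6 and 37.0 CPM in control replicates 1 and 2 (691 and 567 counts). Both treated libraries were far above both controls, and the lower of the treated was 5.82 times the higher of the controls. The mean was 292 CPM ± 45.6 (SD, n = 2) against 40.8 CPM ± 5.43 (SD, n = 2), which is 7.15-fold and a log2 fold change of 2.84 (SE 0.123). Divided by 3820 bases of exon, Dazl ranked 401st and 601st among 14314 genes in the Ogt iKO libraries and 4714th and 5308th in the controls. Without Ogt iKO replicate 1, the library with more feeder signal, its log2 fold change was 2.68. In bulk RNA, a change in the number of cells that make Dazl and a change in the amount per cell cannot be told apart.

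Boll (minus strand of chr1:55243566-55363789), the other DAZ-family gene here and an RNA-binding protein of meiotic germ cells, stayed near the limit of detection. It had 1.17 and 0.967 CPM in Ogt iKO (20 and 15 counts) and 0.775 and 1.30 CPM in control (12 and 20 counts). The groups overlapped, and the log2 fold change was 0.045 (SE 0.373). Its sign turned without control replicate 1 (-0.29) and without Ogt iKO replicate 1 (-0.097). Without control replicate 2 the value was 0.45, and without Ogt iKO replicate 2 it was 0.15. The coding sequences of Dazl and Boll were identical at 63.3% of 810 aligned bases, and no run of 50 bases of either occurred in a transcript of another gene.

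Ddx4 (minus strand of chr13:112598333-112652633), the germ-cell RNA helicase also called Vasa, was already transcribed in the controls. It had 32.4 and 35.1 CPM in Ogt iKO and 43.3 and 37.4 CPM in control. The treated libraries lay below the controls by a small margin, with 83.7% of the control mean and a log2 fold change of -0.26 (SE 0.0968). This difference was -0.088 with scaling by library totals, -0.16 without control replicate 1 and -0.37 without control replicate 2. Per length, Ddx4 and Dazl stood close together in control, at 13.4 and 10.7 CPM per kb of exon, and apart in Ogt iKO, at 11.2 and 76.4.

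Stk31 (plus strand of chr6:49395506-49469506), a Tudor-domain protein with a kinase-like region found in germ cells, had 77.7 and 68.1 CPM in Ogt iKO against 33.5 and 32.7 CPM in control. The groups were well separated and the controls differed by less than 1 CPM. Its mean was 2.20-fold higher and its log2 fold change was 1.14 (SE 0.0889). The lowest value over other settings was 1.05, without Ogt iKO replicate 1.

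**Figure D1:**
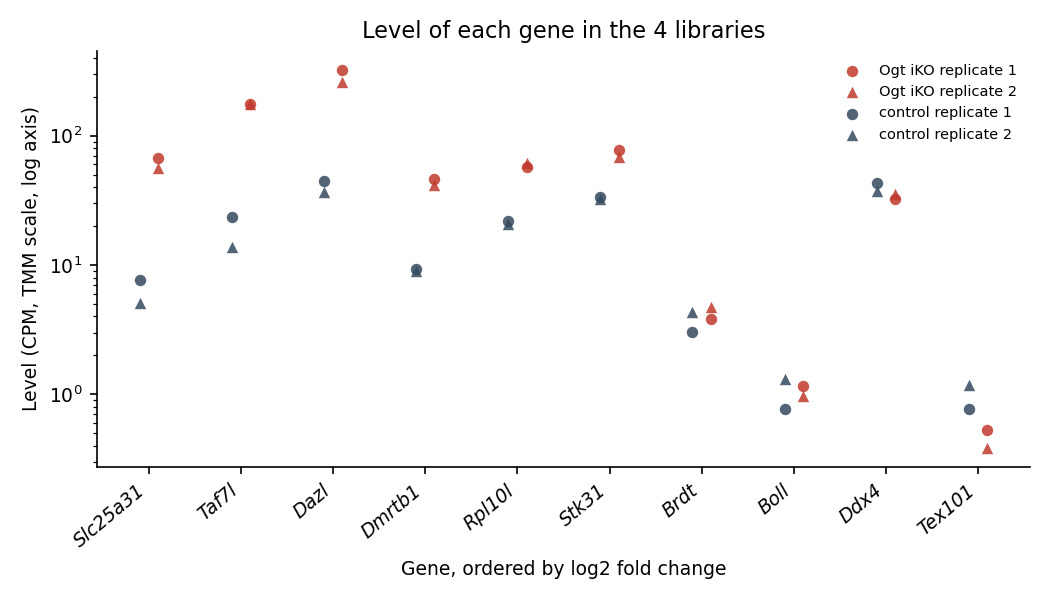
Level of each of the 10 genes in the 4 libraries, in CPM on a log axis, with Ogt iKO in red and control in dark blue and replicates 1 and 2 as circles and triangles. From Slc25a31 to Stk31 both treated libraries lie above both controls, whereas Brdt and Boll overlap and both treated libraries lie below both controls for Ddx4, at 83.7% of the control mean, and Tex101, at 46.9%. Tex101 passed the filter on low counts through the controls alone.

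Among the transcription factors, Taf7l (minus strand of chrX:134460116-134476505) encodes a germ-cell relative of the TFIID subunit TAF7. It had 177.1 and 177.3 CPM in Ogt iKO (3028 and 2750 counts) and 23.5 and 13.8 CPM in control (364 and 212 counts). The treated libraries were nearly equal while the controls were not, with a mean of 177 CPM ± 0.124 (SD, n = 2) against 18.7 CPM ± 6.86 (SD, n = 2). The ratio of means was 9.49, and the 4 pairs of a treated and a control library gave 7.53-fold to 12.8-fold. The log2 fold change of 3.25 (SE 0.178) ran from 2.90 without control replicate 2 to 3.67 without control replicate 1.

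Dmrtb1 (minus strand of chr4:107676288-107704011), a DMRT-family factor that acts at the entry of spermatogonia into meiosis, had 46.0 and 41.6 CPM in Ogt iKO and 9.24 and 9.06 CPM in control. The controls differed by little and the groups by much, with 43.8 CPM ± 3.15 (SD, n = 2) against 9.15 CPM ± 0.13 (SD, n = 2), or 4.79-fold. Its log2 fold change was 2.26 (SE 0.103). Its relative Dmrt1, a regulator of germ-cell and testis development, was more abundant in control and rose less, from 120 and 110 CPM to 267 and 291 CPM (log2 fold change 1.28, SE 0.0702, adjusted p 3.049e-06, edgeR).

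Brdt (plus strand of chr5:107331116-107387061), the testis-specific bromodomain protein of the BET family, had 3.80 and 4.71 CPM in Ogt iKO and 3.04 and 4.30 CPM in control. The groups overlapped, with a log2 fold change of 0.21 (SE 0.245) that ran from -0.026 without control replicate 1 to 0.47 without control replicate 2. Among its relatives that are active in most cells, Brd2 had 475 and 494 CPM in Ogt iKO and 415 and 401 CPM in control, and rose by 0.25 on the log2 scale (adjusted p 0.00455, edgeR). Brd3 had 137 and 131 CPM in Ogt iKO and 186 and 187 CPM in control (log2 fold change -0.48, adjusted p 0.000124, edgeR). Per length, Brdt stayed below 1 CPM per kb of exon in all 4 libraries, where Brd2 had 61.9 in Ogt iKO and 52.1 in control and Brd3 18.2 and 25.4.

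Slc25a31 (plus strand of chr3:40708871-40726094) encodes the ADP/ATP carrier of mitochondria in male germ cells. It had 66.7 and 56.2 CPM in Ogt iKO (1141 and 872 counts) and 7.69 and 5.09 CPM in control (119 and 78 counts). The lower treated library was 7.31 times the higher control. The mean ratio of 9.63 was the highest of the 10 genes in the fit of all 4 libraries, with a log2 fold change of 3.27 (SE 0.166). That value ran from 2.99 without control replicate 2 to 3.59 without control replicate 1, a range that spans the value of Taf7l.

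The somatic carriers went the other way. Slc25a4, the form of heart and muscle, had 151 and 133 CPM in Ogt iKO and 283 and 239 CPM in control (log2 fold change -0.88, adjusted p 6.692e-05, edgeR). Slc25a5, the widely expressed form on the X chromosome, had 193 and 187 CPM against 314 and 277 CPM (log2 fold change -0.64, SE 0.0705, adjusted p 8.629e-05, edgeR). Per length, Slc25a31 made up 14.7% and 13.5% of the sum of the 3 carriers in the Ogt iKO libraries and 1.15% and 0.878% in the controls. Runs of 50 bases shared with other genes made up 33.8% of Slc25a5 and 0% of Slc25a4 and Slc25a31, so the Slc25a5 level is uncertain.

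Taf7, the widely expressed relative of Taf7l, had 211 and 223 CPM in Ogt iKO and 253 and 231 CPM in control and did not pass the threshold (adjusted p 0.0595, edgeR), with a log2 fold change of -0.16 (SE 0.065) that turned to 0.012 with library totals. Taf7 passed with a robust estimate of the spread (adjusted p 0.0437, edgeR) and when Ogt iKO replicate 2 or control replicate 2 was left out (0.0154 and 0.0314, edgeR). Without Ogt iKO replicate 1 and without control replicate 1 the log2 fold change was -0.11 and -0.098, with adjusted p of 0.209 and 0.319 (edgeR). Per length, Taf7l made up 55.2% and 53.9% of the sum of Taf7l and Taf7 in Ogt iKO, against 12.0% and 8.09% in control. Without the division by length the shares were 45.6% and 44.3% against 8.50% and 5.65%, so that in Ogt iKO Taf7l stood above Taf7 per length and below it in counts, and in control below it on both scales.

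**Figure D2:**
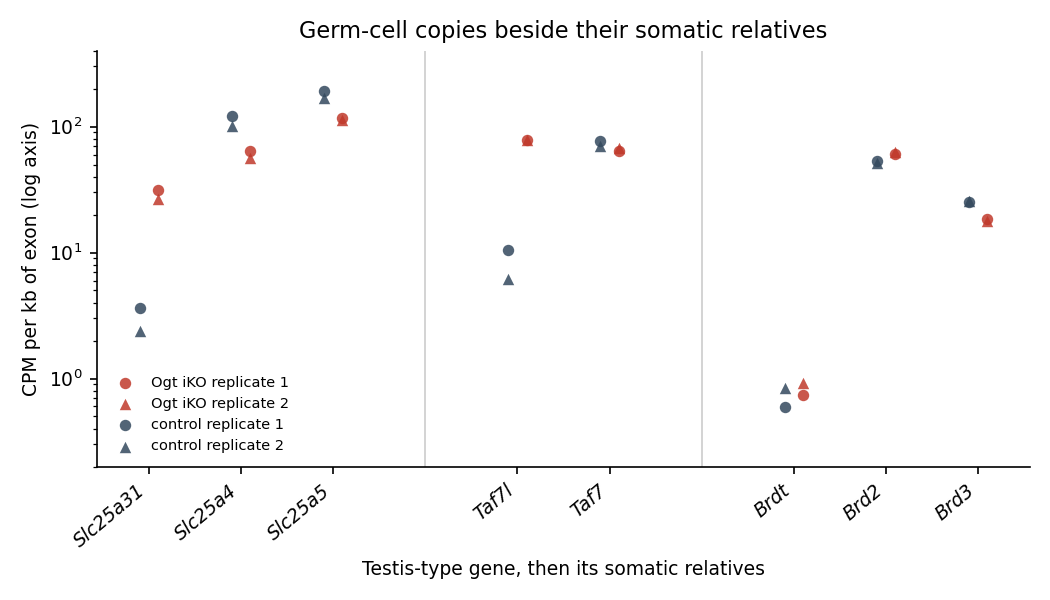
Level per length, in CPM per kb of exon on a log axis, of Slc25a31, Taf7l and Brdt beside somatic relatives, with Ogt iKO in red, control in dark blue, and replicates 1 and 2 as circles and triangles. Per length, Taf7l lies above Taf7 in Ogt iKO and below it in control, Slc25a31 approaches but stays below Slc25a4 and Slc25a5, and Brdt stays far below Brd2 and Brd3.

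Rpl10l (minus strand of chr12:66283379-66284401) is a retrocopy without introns of the X-linked ribosomal protein gene Rpl10, and serves male meiosis when Rpl10 is silenced. It had 56.8 and 62.0 CPM in Ogt iKO (971 and 962 counts) and 21.8 and 20.9 CPM in control (337 and 321 counts). Both treated libraries were above both controls, with 59.4 CPM ± 3.69 (SD, n = 2) against 21.4 CPM ± 0.599 (SD, n = 2), a ratio of 2.78 and a log2 fold change of 1.48 (SE 0.0866). With the sequence of 1 exon of 1023 bases, 7.60% of its runs of 50 bases also occurred in the pseudogene Gm14460, so its count is less certain than those of the other 9 genes, which shared none. Rpl10l and Rpl10 were identical at 84.7% of 642 coding bases.

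Rpl10 itself had only 50 and 58 counts in Ogt iKO and 79 and 81 in control (log2 fold change -0.64, adjusted p 0.0265, edgeR). Of its runs of 50 bases, 33.5% occurred in transcripts of 16 other genes, the pseudogenes Rpl10-ps1, Rpl10-ps3 and Rpl10-ps6 among them. Gapdh, which is abundant in most cells and has many pseudogenes, had 47 to 71 counts per library. How reads that map to several loci were counted is not given in the sources used here, so no share of Rpl10l in the pair is given. The call of Rpl10 was lost at a threshold of 0.01, and at 0.05 with DESeq2, with library totals, and without any of Ogt iKO replicate 1, control replicate 1 and control replicate 2, where adjusted p ran from 0.0779 to 0.158.

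Tex101 (minus strand of chr7:24668012-24672050), a glycoprotein on the surface of male germ cells needed for sperm function, had 9 and 6 counts in Ogt iKO and 12 and 18 in control. The treated libraries, at 0.526 and 0.387 CPM, lay below the controls, at 0.775 and 1.17 CPM, and the log2 fold change was -1.07 (SE 0.428). With so few counts its value ran from -1.35 without control replicate 1 to -0.76 without control replicate 2. Tex101 passed the filter on low counts through the controls alone, so its lower level in Ogt iKO supports nothing.

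At an adjusted p under 0.05 in edgeR, 7 of the 10 genes were called, 6 higher and 1 lower (Ddx4), and 3 were not. Over all tested genes 65.3% were called, 33.2% higher and 32.0% lower. The groups did not overlap for 8 of the 10, against 83.2% of all tested genes, and 6 were called higher and at least 2-fold, against 14.9% of all tested genes. Since several were chosen for their rise, and Tex101 passed the filter through the controls alone, nothing is read from these shares. The call of Ddx4 was lost with library totals, DESeq2, no filter on low counts, an adjusted p under 0.01, and without Ogt iKO replicate 1 or control replicate 1. Together the 10 genes summed to 787 and 706 CPM in Ogt iKO and 188 and 163 CPM in control, and Dazl accounted for 44.0% of the difference of the means.

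**Figure D3:**
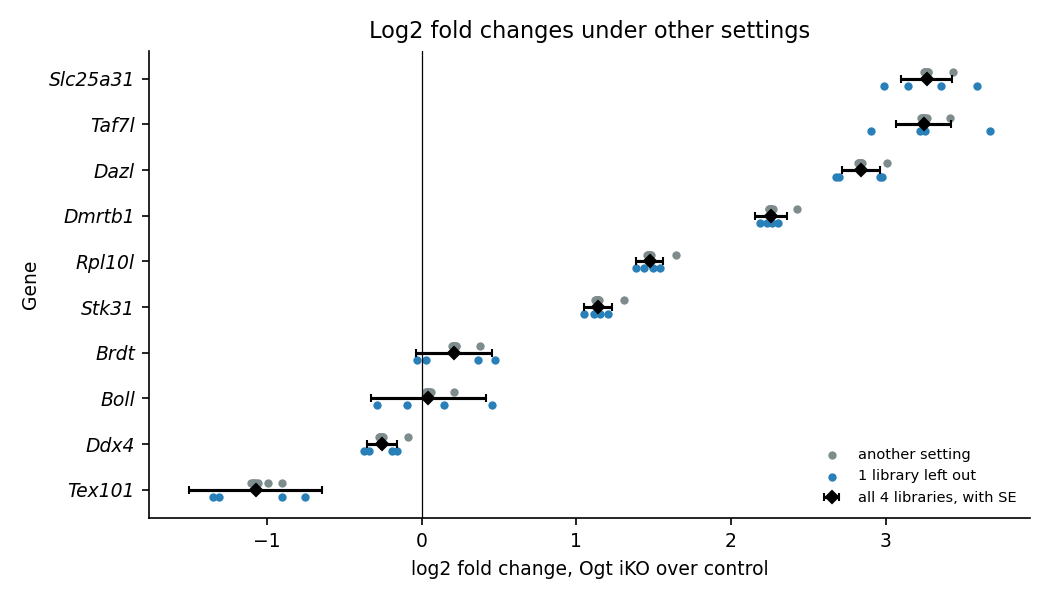
Log2 fold change of Ogt iKO over control for each gene, with the fit of all 4 libraries as black diamonds with their standard error, fits without 1 library in blue and other settings in grey. The 6 highest genes stay above 1 throughout, Brdt and Boll cross 0, and Taf7l and Slc25a31 vary most among the 6 when a control library is left out.

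The replicates varied in a gene-specific way. Control replicate 1 was above control replicate 2 for Dazl, Taf7l, Slc25a31 and Ddx4, and the pair nearly coincided for Dmrtb1, Stk31 and Rpl10l. For Brdt, Boll and Tex101 control replicate 2 was the higher. The summed feeder markers were 983 and 1103 CPM in control replicates 1 and 2, and their part in these differences was not tested.

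The genes whose levels over the 4 libraries were most like those of Dazl were found by the Euclidean distance of log2 CPM centred on the control mean. They were Krt7, a keratin of simple epithelia (distance 0.144), Cpm, a membrane carboxypeptidase (0.192), the transcription factor Ebf4 (0.226), the lysosomal carrier Slc46a3 (0.238) and the signalling adaptor Gab2 (0.244). Their log2 fold changes lay between 2.74 (Cpm) and 3.03 (Ebf4). With 4 libraries in 2 groups this likeness mostly reflects a rise of similar size, and it carries no test.

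The nearest tested genes on either side of each of the 10, a comparison chosen after their values were known, were examined for changes in the surroundings. Dazl lay between Rftn1, 88.9 kb away, and Plcl2, 215 kb away, and both rose, by 1.06 (SE 0.218, adjusted p 0.00269) and 1.95 (SE 0.134, adjusted p 8.051e-06, edgeR). Slc25a31 lay between Intu, 4.09 kb away, and Hspa4l, a heat-shock protein relative 18.4 kb away, and both rose, by 0.77 (adjusted p 0.000118) and 1.48 (adjusted p 1.308e-05, edgeR). These 4 neighbours rose less than the gene between them. Some of the 10 were picked for their rise, so nothing is read from this. Beside Brdt, whose groups overlapped, Tgfbr3, 41.5 kb away, rose by 1.04 (adjusted p 0.00103, edgeR). Ephx4, 16.5 kb away on its other side, was not called (log2 fold change 0.52, adjusted p 0.238, edgeR).

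Taf7l showed a different surrounding. Drp2, 3.54 kb away, had 0.732 CPM in Ogt iKO and 0.747 CPM in control (log2 fold change -0.022, adjusted p 0.969, edgeR), and Timm8a1, 60.8 kb away, had a log2 fold change of -0.85 (adjusted p 0.0115, edgeR). The neighbours of Dmrtb1, Glis1 and Lrp8, had log2 fold changes of 0.080 and -0.074, and those of Stk31, Fam221a and Mpp6, of -0.27 and 0.027, with adjusted p from 0.288 to 0.883 (edgeR). Of all 20 neighbours, 7 were higher, 3 were lower and 10 were neither, against 33.2% and 32.0% of all tested genes. Some of them lie far off. Mpp6 is 641 kb from Stk31, and Wdr20rt, called higher, and Lrr1 are 1055 kb and 2884 kb from Rpl10l. Such genes do not describe close surroundings. Of the neighbours of Boll, Mars2, 3.51 kb away, had a log2 fold change of -0.31 (adjusted p 0.0317, edgeR), and Plcl1, 42.2 kb away, of 1.64 (adjusted p 0.00774, edgeR).

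**Figure D4:**
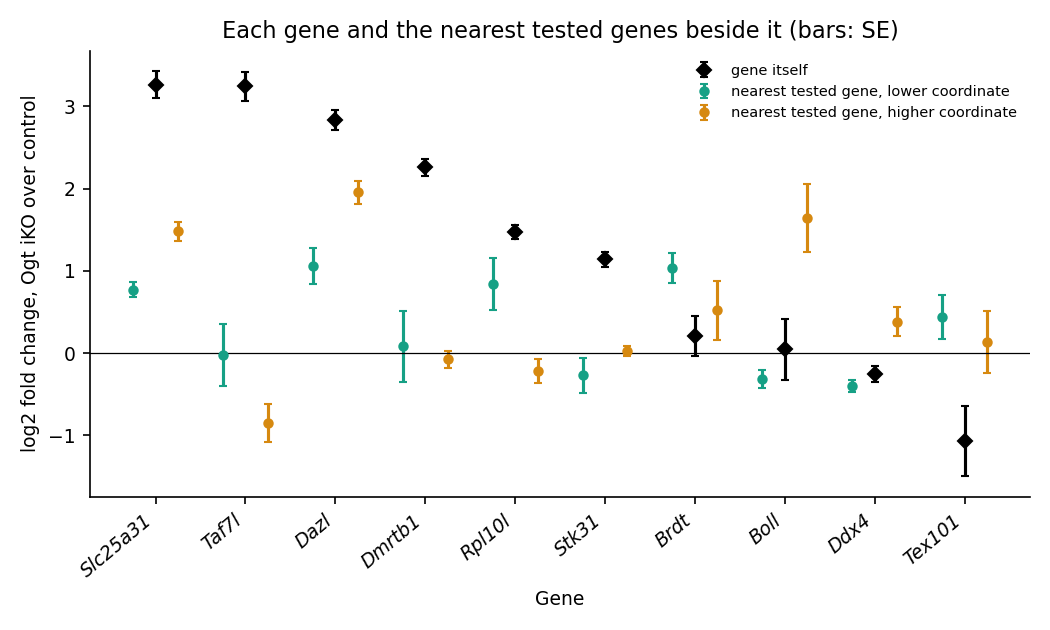
Log2 fold change of Ogt iKO over control for each gene (black diamonds) and for the nearest tested gene at lower (green) and higher (orange) chromosome coordinates, with standard errors. Both neighbours of Dazl and of Slc25a31 are above 0 but below the gene itself, and those of Dmrtb1 and Stk31 lie near 0. The neighbour of Stk31 at higher coordinates (641 kb away) and both neighbours of Rpl10l (1055 kb and 2884 kb away) are distant.

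Other genes of the same roles came from lists of germ-cell genes. The 10 genes above are left out of the counts of these lists. Over all tested genes 33.2% were called higher and 32.0% lower, and the median log2 fold change was 0.024. Of 26 other germ-cell RNA-binding and RNA-granule genes, 23 were tested, and 11 were higher, 5 lower and 7 neither, with a median log2 fold change of 0.23. The median was 0.40 with library totals and 0.40 with no filter, where that of all genes was 0.19 and 0.081. The count of higher genes was 7 with DESeq2 and 7 without control replicate 2, where 24.8% and 26.5% of all genes were higher. Rnf17, a Tudor protein of the germ-cell granule, fell to 37.2 and 39.5 CPM in Ogt iKO, where the controls had 198 and 203 CPM (log2 fold change -2.39, adjusted p 2.486e-07, edgeR). Of 6 genes of this list with names in Tdr, all for Tudor-domain proteins, Tdrd6 was not tested. Log2 fold changes were 1.87 for Tdrd9, 1.75 for Tdrd7, 1.35 for Tdrd1 and 0.99 for Tdrd5, with adjusted p from 6.701e-05 to 0.00115 (edgeR). Tdrkh had 7.18 CPM in Ogt iKO and 7.14 CPM in control and was not called (log2 fold change 0.0082, adjusted p 0.971, edgeR).

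Of 23 other germ-cell transcription and chromatin regulators, 18 were tested, and 11 were higher, 3 lower and 4 neither, against 33.2% higher and 32.0% lower over all tested genes, with a median log2 fold change of 0.79. Nobox passed the filter on low counts through Ogt iKO alone and Dmrtc2 through the controls alone, so their calls support nothing. Stra8, which starts meiosis in answer to retinoic acid, was the most abundant, at 527 and 496 CPM in Ogt iKO and 196 and 187 CPM in control (log2 fold change 1.42, adjusted p 1.013e-06, edgeR). Rhox13, a homeobox gene of the X chromosome, had 41.3 and 28.0 CPM in Ogt iKO and 4.72 and 1.83 CPM in control (log2 fold change 3.40, adjusted p 4.213e-05, edgeR). Scml2, a Polycomb protein of the male germline, rose by 1.76 (SE 0.176, adjusted p 5.176e-05, edgeR).

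Of 26 other testis copies of housekeeping genes, 16 were tested, and 4 were higher, 5 lower and 7 neither, shares near the 33.2% higher and 32.0% lower of all tested genes. They had a median log2 fold change of 0.066 that was 0.23 with library totals, 0.21 without Ogt iKO replicate 1, -0.030 without Ogt iKO replicate 2 and -0.055 without control replicate 1. Rpl39l, a copy of the ribosomal protein gene Rpl39, rose to 117 and 111 CPM, where the controls had 54.6 and 49.0 CPM (log2 fold change 1.14, adjusted p 7.555e-06, edgeR). Log2 fold changes were -1.31 for Tuba3a (alpha-tubulin), -1.23 for Cox6b2 (cytochrome oxidase) and -0.79 for Cyct (testis cytochrome c), with adjusted p from 3.07e-05 to 0.000186 (edgeR). Tuba3a shares 35.3% of its runs of 50 bases with Tuba3b and other copies and is uncertain. Pgk2, the testis phosphoglycerate kinase, had 0 counts in all 4 libraries.

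None of the 26 tested somatic relatives of such copies was higher and 18 were lower, with a median log2 fold change of -0.38, against 33.2% higher, 32.0% lower and a median of 0.024 over all tested genes. With library totals, which shifted the median of all genes to 0.19 and gave 6116 higher and 3282 lower of all 14525, 1 of them was higher and 12 were lower, and their median was -0.21. The glycolytic genes Aldoa and Ldha had log2 fold changes of -1.88 (SE 0.0673) and -1.43 (SE 0.0654), Pgk1 of -1.65 and the ribosome-assembly gene Utp14a of -1.43, with adjusted p from 5.371e-07 to 1.811e-05 (edgeR). Pgk1 shares 53.9% of its runs of 50 bases with other genes and is uncertain. Utp14a shares 11.0%, Ldha 9.26% and Aldoa 5.13%, so their levels are less certain too. Of the other relatives, Slc25a5 shares 33.8% and Rpl10 33.5%, and Gapdh had only 47 to 71 counts per library and Cycs 41 to 61. The counts of calls in this list carry these limits.

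Of 19 other male germ-cell surface and sperm genes only 6 passed the filter on low counts, and 5 were higher and 1 lower. Spaca1 passed it through Ogt iKO alone and had to differ, and with so few genes tested nothing is read from these counts. Spaca1, a protein of the acrosome, had 45 and 42 counts in Ogt iKO and 5 and 5 in control. Ly6k, a partner of TEX101 on the germ-cell surface, had 123 and 109 counts against 22 and 25, Dpep3, another such partner, 80 and 68 against 25 and 21, and Tex15, which acts in transposon silencing, 3001 and 2928 against 1124 and 1268. Their log2 fold changes were 3.01, 2.22, 1.60 and 1.23, while Tex101 itself was at 0.457 CPM in Ogt iKO. Ly6k shares 32.7% of its runs of 50 bases with Gm17189 and is uncertain.

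**Figure D5:**
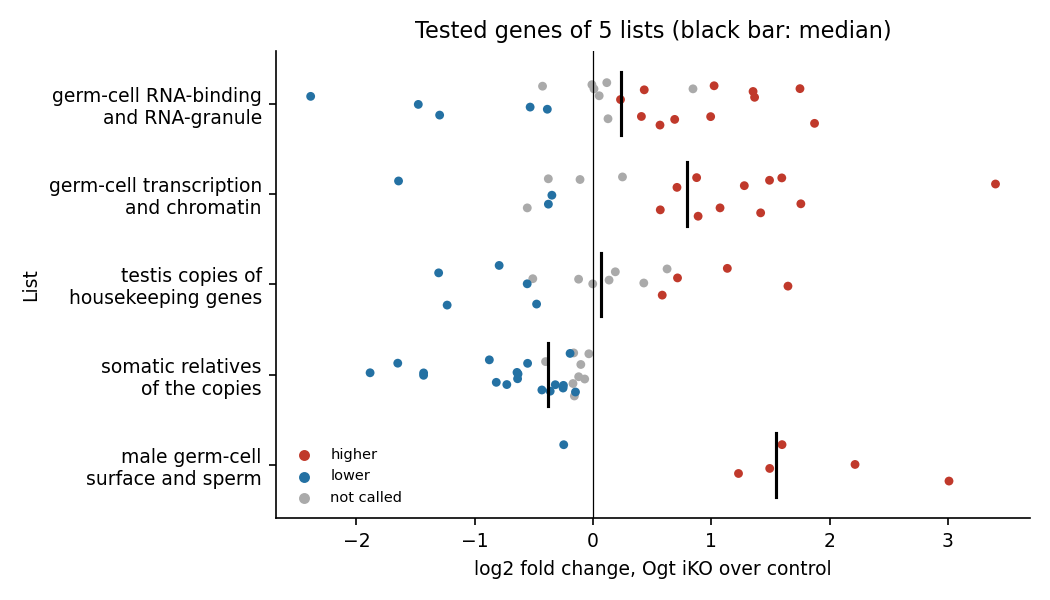
Log2 fold change of Ogt iKO over control for the tested genes of 5 lists, without the 10 genes described first, coloured by call at an adjusted p under 0.05, with the list's median as a black bar. The lists of RNA-binding genes and of testis copies spread to both sides of 0, and the somatic relatives all lie below 0 with TMM scaling, whereas with library totals some, Taf7 among them, lie above it.

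Markers of other cell types are given beside these genes. Over all tested genes 33.2% were higher and 32.0% lower. Of 7 markers of primordial germ cells other than Dazl and Ddx4, 4 were higher and 3 lower. Dppa3 had 91.3 CPM in Ogt iKO and 52.6 CPM in control and Nanos3 3.54 and 1.36 CPM, whereas Prdm14 had 1.66 and 11.1 CPM and Tfap2c 17.6 and 85.2 CPM. Of 7 meiotic markers 6 were tested, with 4 higher (Sycp1, Sycp2, Stra8 and Hormad1) and 2 lower (Sycp3 and Dmc1), and Sycp2, with 31 and 25 counts against 7 and 7, passed the filter on low counts through Ogt iKO alone. The 7 spermatid markers, Prm1 and Tnp1 among them, summed to 0.292 and 0.129 CPM in Ogt iKO and 0.129 and 0.130 CPM in control, and Prm1, Tnp1 and Spem1 were at 0 in all 4 libraries.

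The summed level of 8 markers of the 2-cell-like state was 102 and 108 CPM in Ogt iKO and 26.2 and 17.1 CPM in control, and 7 of 7 tested were higher. Of these, Dux and Tcstv3 passed the filter on low counts through Ogt iKO alone and had to differ, so the count supports nothing. That of 7 primitive endoderm markers was 94.6 and 75.2 CPM against 26.1 and 23.2 CPM, with 4 of 7 higher and 0 lower, of which Sox17 and Foxa2 passed the filter in that same way. Most of this sum was Dab2, at 69.9 and 58.8 CPM against 14.2 and 10.7 CPM, while Gata4 had 7.55 and 6.51 CPM against 2.84 and 3.32 CPM. That of 6 trophectoderm markers was 356 and 372 CPM against 42.3 and 33.5 CPM, with 4 of 5 tested higher and 0 lower. Most of that sum was the keratins Krt18, at 238 and 243 CPM against 22.2 and 17.3 CPM, and Krt8, at 89.9 and 101 CPM against 8.66 and 5.87 CPM, while Cdx2 was at 1.46 and 1.48 CPM against 1.10 and 1.17 CPM. Elf5, a defining trophectoderm factor, had 2 and 0 counts in Ogt iKO and 0 and 0 in control. The 4 trophectoderm markers called higher were Krt8, Krt18, Eomes and Gata3. The part of any of these cell types in the levels of Dazl, Taf7l, Slc25a31 and the other genes was not tested.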

How the data were processed

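Gene expression was measured by sequencing of polyadenylated RNA in 2 Ogt iKO and 2 control libraries, grouped by their titles. The authors deposited a table of raw counts per gene symbol for each library. STAR, Picard and the build mm10 are named in the submitters' processing notes; versions, annotation, counted strand and the treatment of reads that map to several loci are not given in the sources used here. Rows that name no gene numbered 0.

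All 4 libraries entered 1 edgeR model (version 4.0.16, R 4.3.3) without covariates, after filterByExpr and TMM scaling; its quasi-likelihood test was used with Benjamini-Hochberg adjustment over 14525 genes and a threshold of 0.05. CPM use TMM-scaled totals. Each standard error was derived from the F statistic. The script was tested on simulated data with few changed genes, balanced between directions, and the same spread for all genes. Far more genes were called in the real data, so that test says nothing on the scaling or the share called here. With 2 libraries a group, an exact test of 1 value cannot give a p below 0.333. The chi-square per degree of freedom between replicates was 7.41 in Ogt iKO and 4.30 in control, more than sampling noise. The groups share replicate numbers, but only 2 pairs exist and nothing in the labels ties them.

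Exon lengths, overlaps and shared runs of 50 bases came from GENCODE M21, and gene positions, distances and promoters from RefSeq, both on GRCm38, which mm10 names. All 10 genes matched by symbol, and none had exons overlapping another gene's. Coding sequences were aligned with Biopython 1.88.

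The genes and lists were chosen with earlier results of these data known. Named by rule are the 10 genes, Ogt, their paralogues (1 is not reported here), up to 4 genes per list with the smallest adjusted p among those called, and the 5 genes nearest to Dazl; Nanos3, Dppa3 and other markers, neighbours, Gapdh, Tdrd9 and Tdrkh were named outside it, after their values were seen. Alternatives were other scalings, DESeq2 1.42.0, other filters, a robust spread, the replicate block, a threshold of 0.01, a prior count of 1 and leaving out each library.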

Additional observations from a re-analysis of the deposited data

How the results depend on the processing

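Depth limits Boll and Tex101, with 6 to 20 counts per library, and feeder signal differed between the Ogt iKO libraries. The log2 fold change of Ogt kept its sign and stayed within 1.5 times in all alternatives run, and ran from -3.01 to -2.93 when 1 library was left out. The counts of higher and of lower genes each stayed within 1.5 times. Which of the counts was larger turned with DESeq2, at 3606 higher and 3921 lower, and without control replicate 2. With library totals 6116 genes were higher and 3282 lower, against 4827 and 4651. The replicate block gave 4922 higher and 4719 lower genes; same-numbered libraries deviated with a correlation of 0.0859, over 2 pairs. The smaller of the planned prior counts is the default already used. Other higher germ-cell RNA-binding genes numbered 7 with DESeq2 and, leaving out 1 library, from 7 to 10, where 24.8% and from 26.3% to 32.1% of all genes were higher. Lower sperm genes numbered 0 with library totals, DESeq2 and a threshold of 0.01, 2 with no filter, and from 0 to 2 leaving out 1 library. Higher somatic relatives numbered 1 with library totals. The median of the testis copies was 0.21 without Ogt iKO replicate 1 and turned to -0.019 with no filter, -0.030 without Ogt iKO replicate 2 and -0.055 without control replicate 1. Counts without length gave Slc25a31 15.6% of its sum in Ogt iKO and Taf7l 45.0% and 7.07% in Ogt iKO and control. With the 250 upstream bases alone, 6.02% of windows held the E-box and 16.9% the E2F core. The cause of these shifts was not tested.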
